A study of Mus musculus with 3 samples.

Results

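FoxO transcription factors control part of the genes through which muscle wastes. Followed here across the 3 arrays of a mouse muscle study were 10 genes of muscle atrophy and the FoxO pathway. Among them are the factors Foxo1 and Foxo3 and the ubiquitin ligases Fbxo32, Trim63, Cblb and Nedd4. The others are the autophagy and lysosome genes Gabarapl1, Bnip3 and Ctsl, and the translation inhibitor Eif4ebp1. All 10 were taken by symbol from the gene names in the scanner files, where Foxo3 is written Foxo3a. This gave 17 probes of 10 genes, out of 41169 probes of 27665 genes. The mice were 6-week-old males, and total RNA of muscle was isolated after 14 days. One group swam and ate food that held 0.5% Chlorella powder, a unicellular green alga, the second group swam on normal food, and the third stayed out of the water on normal food. RNA of 10 mice was pooled for each group and hybridised to 1 single-colour array, so differences between mice were not measured, no test between groups was possible, and every ratio below compares 1 pool with another. The labels used here name neither the strain nor which muscle was taken.

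When insulin and growth factor signalling through Akt is strong, FoxO proteins are phosphorylated and kept out of the nucleus. When it weakens, or when glucocorticoids act, FoxO proteins enter the nucleus and switch on ubiquitin ligases that mark muscle proteins for the proteasome, together with genes of the autophagosome and lysosome. The same pathway acts on protein synthesis through mTORC1, whose target 4E-BP1, the product of Eif4ebp1, holds back cap-dependent translation.

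Signals are given as the processed intensity divided by the 75th percentile of the same array, which was 237.8 intensity units in Chlorella swimming, 295.0 in swimming and 285.9 in nonswimming muscle. They compare 1 probe between arrays, and not different probes with each other. The muscle label held: all 15 muscle fibre markers were well above background on every array, with summed signals of 7109 in Chlorella swimming, 5489 in swimming and 6454 in nonswimming muscle. Markers of blood and marrow cells differed far more. Summed signals of the neutrophil markers were 3.67 in Chlorella swimming, 282.2 in swimming and 17.0 in nonswimming muscle, with 3, 0 and 1 of 13 not well above background. Those of 11 B cell markers were 0.498, 7.49 and 0.723 in the same order of arrays, with 7, 0 and 5 not well above background, and those of 9 erythroid markers were 44.4, 162.8 and 56.9, with 6, 0 and 3 not well above background. Most of the erythroid sum is Hba-a1 (42.4, 147.1 and 53.5), and all 6 measured erythroid markers were higher in swimming than in nonswimming muscle. Those of 11 adipocyte markers were 604.4, 929.4 and 494.8, all above background. Those of 13 macrophage markers were 49.4, 122.9 and 89.1, with 1, 0 and 0 not well above it. Most of the macrophage sum is Lyz2 (39.9, 108.7 and 73.7), and 7 of the 13 were lower in swimming than in nonswimming muscle. All 12 measured were lower in Chlorella swimming than in swimming muscle. The 11 keratinocyte markers summed to 5.51, 6.87 and 12.4, with 5, 4 and 3 not well above background. Of those measured, 5 of 7 were at least 2-fold lower in swimming than in nonswimming muscle. In Chlorella swimming against nonswimming muscle 4 of 6 were. The 9 fibroblast markers summed to 493.9, 481.5 and 616.7, and the 9 endothelial markers to 34.0, 28.2 and 32.2. Markers of blood, marrow, fat and keratinocytes thus differed beside the comparisons below, and their part in the ratios was not tested.

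**Figure D1:**
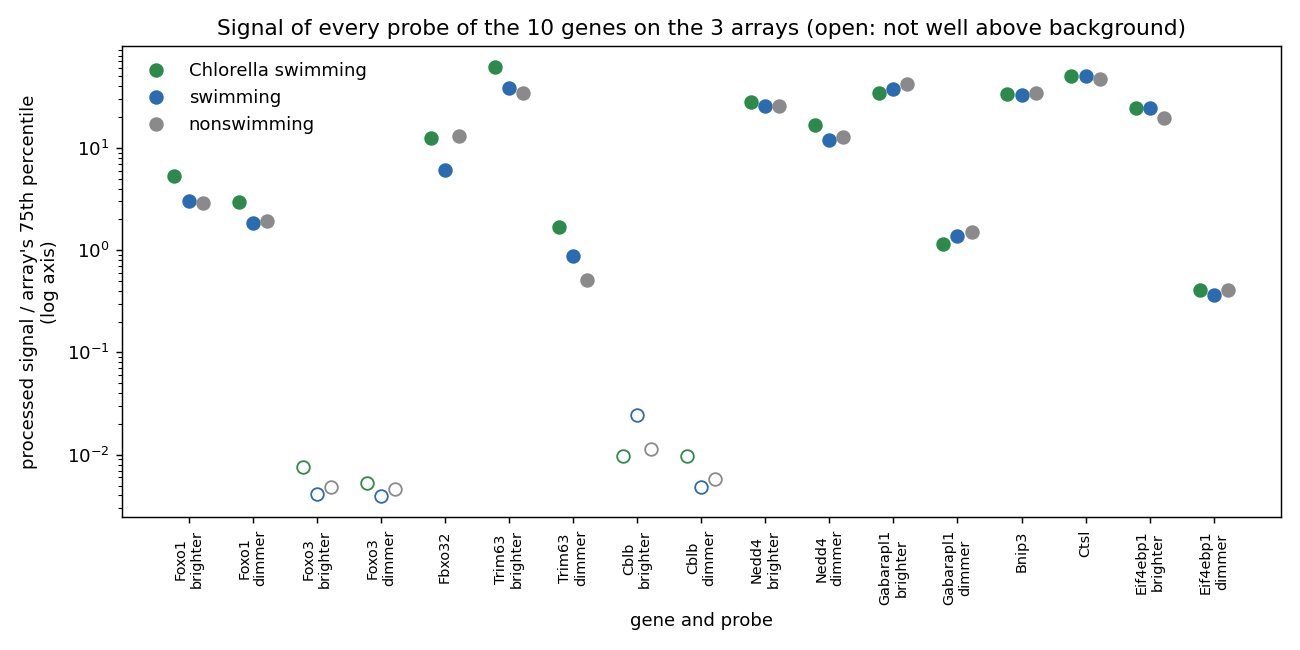
Signal of each of the 17 probes of the 10 genes on the Chlorella swimming, swimming and nonswimming arrays, as processed signal divided by the array's 75th percentile on a log axis. Open circles were not well above background. Fbxo32 was lowest on the swimming array (6.12), Foxo1 and Trim63 were highest on the Chlorella swimming array, and the probes of Foxo3 and Cblb lay at background. Heights of different probes cannot be compared.

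Of the 10 genes, 8 were measured, meaning well above background on both arrays of a comparison, and 13 of the 17 probes were. Both Foxo3 probes and both Cblb probes were not well above background on any array. The signals of the Foxo3 probes were between 0.00395 and 0.00752 of the 75th percentile, and those of the Cblb probes between 0.00489 and 0.0246. No ratio is given for either gene. A gene with several probes is represented by its brightest, and the others are given beside it. Each log2 ratio carries the error that Feature Extraction assigned to both spots, 0.20 for most measured genes. A ratio larger than about 2 such errors, or 0.40 on the log2 scale, is called beyond the scanner error. Differences between mice are not part of that limit.

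Foxo1, which encodes the only FoxO factor of the set that could be read here, was highest with Chlorella. Its signal was 5.33 with Chlorella and swimming, 3.00 with swimming alone and 2.89 without swimming. The arrays without Chlorella lay close together and the Chlorella array stood above both. The log2 ratio was 0.83 ± 0.20 for Chlorella swimming against swimming and 0.88 ± 0.20 for Chlorella swimming against nonswimming, against 0.06 ± 0.20 for swimming against nonswimming. The dimmer Foxo1 probe, 3106 bases away, gave signals of 2.94, 1.83 and 1.93 in the same order of arrays. Its ratios were 0.68, 0.61 and -0.08 for the same 3 comparisons, so both probes ranked the Chlorella swimming array first. Centred on 15 muscle fibre markers, an alternative described with Fbxo32, the brighter probe had ratios of 0.46, 0.73 and 0.27 for these comparisons. Both lie on chromosome 3, at 52472787 to 52472846 and 52475893 to 52475952 by the files' own coordinates; no source used here names their build.

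Fbxo32 encodes atrogin-1, the muscle-specific F-box protein that selects substrates for ubiquitination in wasting muscle. Its signal was 12.5 in Chlorella swimming, 6.12 in swimming and 13.1 in nonswimming muscle, so the swimming array on normal food was low and the other 2 arrays were alike. The level was 2.14 times lower in swimming than in nonswimming muscle, a log2 ratio of -1.10 ± 0.20. It was 2.04 times higher with Chlorella swimming than with swimming on normal food, a log2 ratio of 1.03 ± 0.20. Both comparisons use the swimming array, so 1 low value on that array enters both. Chlorella swimming against nonswimming, which does not use it, gave -0.07 ± 0.20. The gene has 1 probe here, on chromosome 15 from 58245533 to 58245592 in the files' coordinates, so no second probe checks these values. In pooled tissue, fewer muscle cells and less RNA per muscle cell cannot be told apart. The muscle fibre markers had the signs of the Fbxo32 ratios. In swimming against nonswimming 13 of 15 were below 0 (median -0.13, beside -0.04 for all measured genes). In Chlorella swimming against swimming 15 of 15 were above 0 (median 0.34, beside 0.08 for all measured genes). Centred on the median signal of these 15 markers, an alternative chosen after seeing the data, the Fbxo32 ratios were -0.88, 0.66 and -0.22 for swimming against nonswimming, Chlorella swimming against swimming and Chlorella swimming against nonswimming. On that scale neither of the first 2 reached 2-fold. The median signal fell on a different marker on each array. It was Myh2 (504.4) in Chlorella swimming, Mybpc2 (391.0) in swimming and Atp2a1 (454.0) in nonswimming muscle. Every value centred in this way thus rests on a comparison of unlike probes, and the shift is not the median ratio of the markers. The median ratios of the markers depend on the scaling too. Over the 9 other ways of processing they were between -0.28 and 0 for swimming against nonswimming. For Chlorella swimming against swimming they were between 0.04 and 0.48, and both were nearest to 0 with quantile normalization.

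Trim63 encodes MuRF1, a RING-finger ligase of the sarcomere that acts on myosin and other thick-filament proteins. Its brighter probe had signals of 61.3 in Chlorella swimming, 38.6 in swimming and 34.3 in nonswimming muscle. The Chlorella swimming array was the highest, as for Foxo1. The log2 ratio was 0.67 ± 0.20 for Chlorella swimming against swimming, 0.84 ± 0.20 for Chlorella swimming against nonswimming and 0.17 ± 0.20 for swimming against nonswimming. On the scale of the muscle fibre markers these were 0.30, 0.68 and 0.39. Unlike Fbxo32, the gene was not low in swimming muscle on normal food.

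The dimmer Trim63 probe gave a steeper pattern. Its signals were 1.67 in Chlorella swimming, 0.870 in swimming and 0.505 in nonswimming muscle. Its ratios were 0.95 ± 0.20 for Chlorella swimming against swimming, 1.73 ± 0.20 for Chlorella swimming against nonswimming, a 3.31-fold difference, and 0.78 ± 0.20 for swimming against nonswimming. The gap between the 2 probes was 0.89 in Chlorella swimming against nonswimming and 0.61 in swimming against nonswimming, beyond the 0.57 that about 2 scanner errors of such a gap allow. No other gene with 2 measured probes had a gap beyond this limit, of 5 such genes. The brighter probe lies on chromosome 4 from 133707547 to 133707606 and the dimmer one from 133695737 to 133695796, which is 11810 bases towards lower coordinates in the same files. Their exon or intron position was not determined, since no annotation of that build was used here.

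The promoters of Trim63 and Foxo1, the 2 genes beyond the scanner error in both comparisons with Chlorella, and that of Gabarapl1, which was within it in both, are shown for comparison of their letters. Windows of 250 bases before to 50 bases after the start came from RefSeq on build GRCm38.p6, and 9 windows of 8 of the 10 genes were matched, with Fbxo32 and Eif4ebp1 not among them. Trim63 lies at chr4:134314870-134315169, Foxo1 at chr3:52268087-52268386 and Gabarapl1 at chr6:129532942-129533241, all on the plus strand. Capitals mark matches to the motifs searched on both strands:
Trim63: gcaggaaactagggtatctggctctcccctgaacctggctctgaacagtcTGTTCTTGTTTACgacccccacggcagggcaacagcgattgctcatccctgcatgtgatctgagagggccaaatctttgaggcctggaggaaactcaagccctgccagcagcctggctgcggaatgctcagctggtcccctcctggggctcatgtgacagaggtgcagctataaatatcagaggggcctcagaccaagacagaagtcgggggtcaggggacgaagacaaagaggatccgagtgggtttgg
Foxo1: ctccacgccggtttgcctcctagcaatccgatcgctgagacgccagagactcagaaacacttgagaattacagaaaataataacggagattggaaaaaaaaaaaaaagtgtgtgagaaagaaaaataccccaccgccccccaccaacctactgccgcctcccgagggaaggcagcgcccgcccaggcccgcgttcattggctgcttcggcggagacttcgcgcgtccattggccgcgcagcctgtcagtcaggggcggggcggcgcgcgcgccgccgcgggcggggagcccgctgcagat
Gabarapl1: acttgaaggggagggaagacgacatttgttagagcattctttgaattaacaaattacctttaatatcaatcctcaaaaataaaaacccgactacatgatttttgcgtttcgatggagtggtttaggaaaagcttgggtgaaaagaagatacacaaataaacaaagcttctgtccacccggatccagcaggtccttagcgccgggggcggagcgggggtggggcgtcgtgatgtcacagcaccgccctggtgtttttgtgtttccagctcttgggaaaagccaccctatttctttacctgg

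The Trim63 window holds the FoxO site GTAAACA, read here on the other strand as TGTTTAC, from -194 to -188 relative to the start. Directly before it, from -200 to -195 and without overlap, stands TGTTCT, 1 arm of the glucocorticoid response element. The letters that end 3 bases before this arm, tgaaca, differ from the element's other arm, AGAACA, in the first letter only. The full element is thus missed there by 1 letter, and such near matches were not counted in any window. The FoxO letters occur in 3.65% of 32851 windows and in 1 of the 9 windows of these genes, that of Trim63. The single arm occurs in 19% of all windows and, among these genes, in those of Trim63 and Nedd4. It was searched after the full element, AGAACA and TGTTCT with 3 bases between them, had matched none of the 9. The full element, which contains the single arm, occurs in 0.00913% of all windows. The E-box CACGTG was found in the windows of Bnip3 and Ctsl and in 7.15% of all, and the cyclic AMP response element TGACGTCA in none of the 9 and in 1.79% of all. The Foxo1 and Gabarapl1 windows held none of these letters in full. Near matches are not particular to Trim63. The Gabarapl1 window holds ataaaca, 1 letter from GTAAACA, and tgatgtca, 1 letter from TGACGTCA. These are matches of letters and no evidence of binding.

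Nedd4 encodes a HECT-type ubiquitin ligase that is known from denervated and unloaded muscle. The brighter probe had signals of 28.0 in Chlorella swimming, 25.5 in swimming and 25.7 in nonswimming muscle, which lie within the scanner error of each other. Its log2 ratios were 0.14, 0.12 and -0.01 for Chlorella swimming against swimming, Chlorella swimming against nonswimming and swimming against nonswimming. The dimmer probe, 6840 bases away, had signals of 16.9, 11.9 and 12.8 in the same order of arrays. Its ratio for Chlorella swimming against swimming, 0.51 ± 0.20, was beyond the scanner error, and that for Chlorella swimming against nonswimming, 0.40 ± 0.20, lay just past the limit. The 2 probes of Nedd4 thus give different calls, although the gap between them was within its own limit. Cblb, a RING-finger ligase that acts on IRS1, could not be read, as given above.

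The autophagy and lysosome genes of the set differed little. Gabarapl1 encodes an Atg8-family protein that is attached to the autophagosome membrane, and its brighter probe had signals of 34.3 in Chlorella swimming, 37.7 in swimming and 41.9 in nonswimming muscle. The order is the reverse of that of Foxo1 and Trim63, but no difference between 2 arrays was beyond the scanner error on this scale. Its ratios were -0.14 for Chlorella swimming against swimming, -0.29 for Chlorella swimming against nonswimming and -0.15 for swimming against nonswimming. The dimmer probe, whose coordinates span 2473 bases of chromosome 6, had -0.27, -0.40 and -0.13 for the same comparisons. Centred on muscle fibre markers, the brighter probe had -0.50, -0.44 and 0.06, so that both comparisons with Chlorella were then lower beyond the scanner error. Bnip3, a mitochondrial outer-membrane protein that recruits the autophagosome, had signals of 33.8 in Chlorella swimming, 33.2 in swimming and 34.6 in nonswimming muscle. Its ratios were between -0.06 and 0.03, the narrowest span of the 8 genes. Ctsl, the lysosomal protease cathepsin L, had signals of 50.3, 50.7 and 47.0 in the same order of arrays and ratios between -0.01 and 0.11.

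Eif4ebp1, by its brighter probe, had signals of 24.5 on the Chlorella swimming array and 24.6 on the swimming array, against 19.4 on the nonswimming array. The ratios were 0.34 ± 0.20 for Chlorella swimming against nonswimming and 0.34 ± 0.20 for swimming against nonswimming, within the scanner error, and -0.01 ± 0.20 for Chlorella swimming against swimming. The dimmer probe lies 178 bases away and had signals of 0.408, 0.365 and 0.404 in the same order of arrays. Its ratios were 0.01, -0.15 and 0.16 for the same 3 comparisons, so the brighter probe's pattern was not seen in it. Centred on muscle fibre markers, the brighter probe had 0.18, 0.56 and -0.37 for these comparisons, and the second was then beyond the scanner error.

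**Figure D2:**
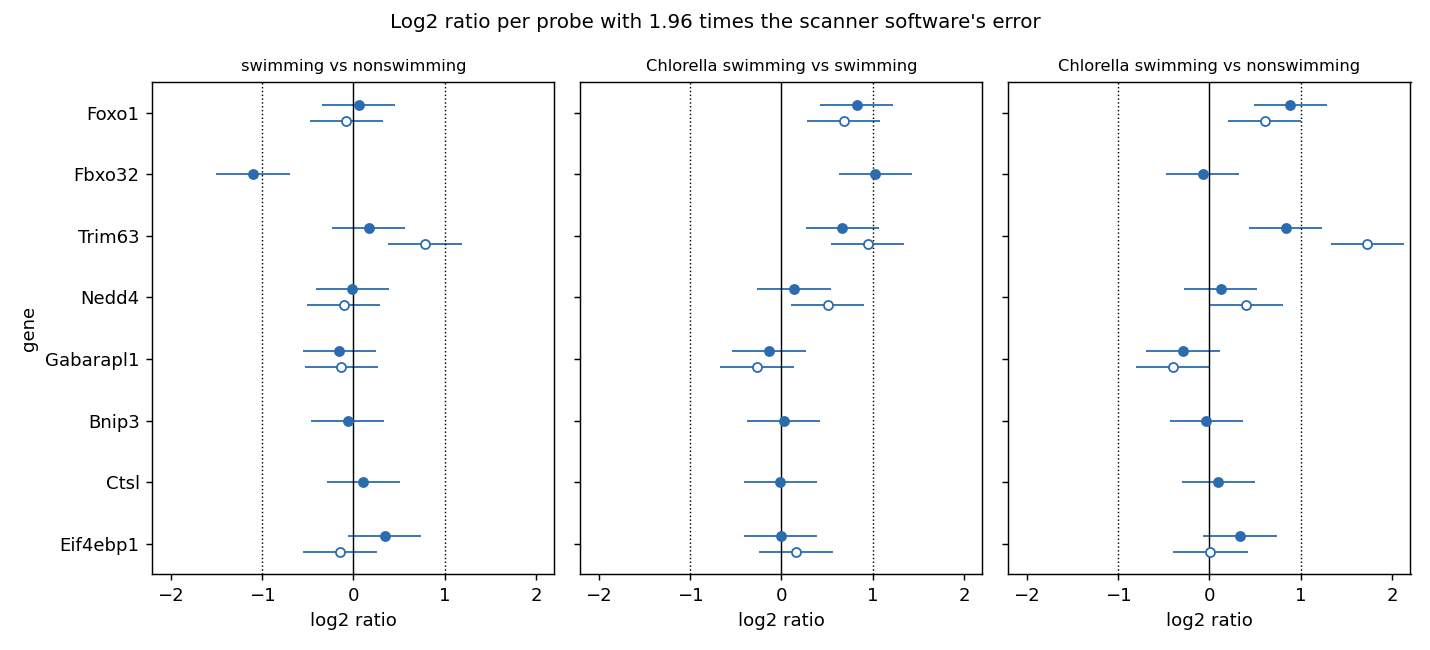
Log2 ratio of each measured probe in the 3 comparisons, with bars of about 2 times the error that Feature Extraction assigned. Filled circles are the probe that represents the gene, open circles the dimmer probe, and dotted lines mark 2-fold. Fbxo32 lies past 2-fold in the first 2 comparisons and near 0 in the third, and the 2 probes of Trim63 differ.

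With each gene read by its brightest probe, Fbxo32 was the only gene of the set past 2-fold. In swimming against nonswimming, 0 of the 8 measured genes were at least 2-fold higher, where 5.14% of 15662 measured genes were, and 1 of 8 was at least 2-fold lower, where 1.07% were. That gene is Fbxo32, and 0.862% of measured genes had a ratio as low as its own. With Chlorella swimming against swimming, 1 of 8 was at least 2-fold higher, again Fbxo32, where 1.37% of 15508 genes were, and 0 of 8 were lower, where 4.86% were. For Chlorella swimming against nonswimming, 0 of 8 passed in either direction, where 2.07% of 15336 genes were higher and 1.49% lower. Trim63 passed there by its dimmer probe (1.73) and with the mean over probes (1.28). Each count rests on 1 gene or none, so none of them describes the set as a group.

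Beyond the scanner error, without a fold, the counts were larger in the 2 comparisons that use the Chlorella swimming array. They are small, and that against nonswimming differs in both food and swimming. Fbxo32, counted against swimming, had like signals in Chlorella swimming and nonswimming muscle (12.5 and 13.1). Higher in Chlorella swimming than in swimming were 3 of 8 genes (Fbxo32, Foxo1 and Trim63), where 11.5% of all measured genes were, and 0 were lower, where 12.3% were. Higher in Chlorella swimming than in nonswimming were 2 of 8 (Foxo1 and Trim63), where 12% were, and 0 were lower, where 10.1% were. In swimming against nonswimming 0 were higher, where 12.3% were, and 1 was lower (Fbxo32), where 8.7% were. Ratios at least as high as those of Fbxo32, Foxo1 and Trim63 in Chlorella swimming against swimming belonged to 1.28%, 2.32% and 4.17% of measured genes. The median log2 ratio of the 8 genes was 0.02 in swimming against nonswimming, 0.08 in Chlorella swimming against swimming and 0.11 in Chlorella swimming against nonswimming. The medians of all measured genes were -0.04, 0.08 and 0.04 for the same comparisons, so 3 genes differed while the middle of the set did not leave that of the array.

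**Figure D3:**
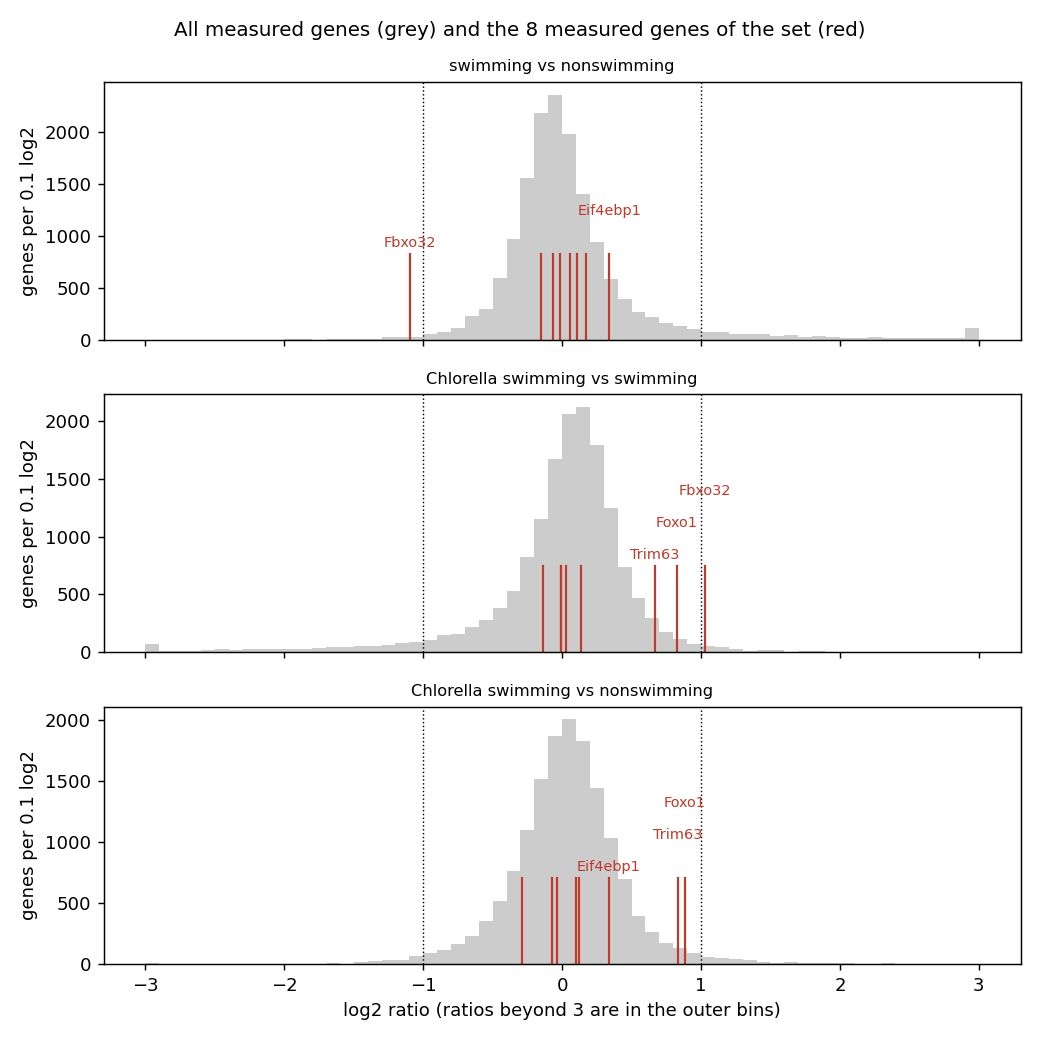
Number of measured genes per 0.1 of log2 ratio (grey bars) in the 3 comparisons, with the 8 measured genes of the set as red lines and 2-fold as dotted lines. For Chlorella swimming against swimming, Fbxo32, Foxo1 and Trim63 lie in the right flank (1.03, 0.83 and 0.67) and the other 5 near the peak.

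The wider pathway was read from 4 lists of related genes outside the 10, chosen with earlier results of these data known. The list of FoxO factors, regulators and targets had 31 measured genes. In Chlorella swimming against swimming 3 were at least 2-fold higher and 0 lower, where 1.37% and 4.86% of all measured genes were. Above 0 were 28, and the median was 0.38, against 0.08 for all genes and 0.34 for the muscle fibre markers. Of all measured genes, 60.6% had a ratio at least as high as the -0.01 of Eif4ebp1. Beyond the scanner error 13 of 31 were higher and 1 lower, beside 11.5% and 12.3% of all measured genes and 4 and 0 of the 15 muscle fibre markers. The largest 2-fold difference of the list was that of Cdkn1a, which encodes the cell cycle inhibitor CIP1, with signals of 1.77 in Chlorella swimming, 0.489 in swimming and 0.532 in nonswimming muscle, and a ratio of 1.86 ± 0.20 against swimming. Sgk1, which encodes a kinase related to Akt that phosphorylates FoxO proteins, had signals of 87.3, 42.7 and 58.7 in the same order and a ratio of 1.03 ± 0.20. Foxo4, another FoxO factor, had 0.0980, 0.0435 and 0.0660 and a ratio of 1.17 ± 0.29 on dim signals. The ratio of Sgk1 was under 2-fold in 5 of 9 other ways of processing, at the lowest 0.67 with the mean over its probes, and that of Foxo4 was 0.45 with the normexp background correction. Against nonswimming, Chlorella swimming had only Cdkn1a of this list past 2-fold (1.73 ± 0.20), where 2.07% of all genes were higher and 1.49% lower. In swimming against nonswimming 0 of 31 passed, where 5.14% were higher and 1.07% lower. Beyond the scanner error 11 were higher and 1 lower in the former, beside 12% and 10.1% of all genes. In the latter 0 were higher and 5 lower, beside 12.3% and 8.7%. The medians were 0.24 and -0.04, beside 0.21 and -0.13 for the muscle fibre markers.

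The mTORC1 and translation control list had 22 measured genes. Ddit4, which encodes REDD1, an inhibitor of mTORC1, had signals of 189.4 in Chlorella swimming, 38.6 in swimming and 37.0 in nonswimming muscle. The Chlorella array stood far above the other 2, with ratios of 2.30 ± 0.20 against swimming and 2.36 ± 0.20 against nonswimming. It was the only gene of the list past 2-fold in these comparisons, where 1.37% and 2.07% of all measured genes were higher, and 0 of 22 passed in swimming against nonswimming, where 5.14% were higher and 1.07% lower. The list medians were 0.21, 0.17 and -0.03 for Chlorella swimming against swimming, Chlorella swimming against nonswimming and swimming against nonswimming. The medians of the muscle fibre markers were 0.34, 0.21 and -0.13 and those of all measured genes 0.08, 0.04 and -0.04 for the same comparisons.

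The list of other ubiquitin ligases and proteolysis genes of muscle had 29 measured genes and none past 2-fold in any comparison. Of all genes, 5.14% were higher and 1.07% lower in swimming against nonswimming. The shares were 1.37% and 4.86% in Chlorella swimming against swimming, and 2.07% and 1.49% in Chlorella swimming against nonswimming. With shares this small, a count of 0 in a short list says little. In the list, 28 of 29 were above 0 in Chlorella swimming against swimming, with a median of 0.27. Of all measured genes, 60.6% had a ratio there at least as high as the -0.01 of Eif4ebp1. In swimming against nonswimming 25 of 29 were below 0, with a median of -0.19. Of all measured genes, 53.1% had a ratio there at least as low as the -0.01 of Nedd4. Beyond the scanner error 8 of 29 were higher in Chlorella swimming against swimming, where 11.5% of all measured genes were. In swimming against nonswimming 4 of 29 were lower, where 8.7% were. The median for Chlorella swimming against nonswimming was 0.13. The list medians of 0.27 and -0.19 have the signs of the Fbxo32 ratios, at a fraction of their size. The medians of the muscle fibre markers (0.34 and -0.13) and of all measured genes (0.08 and -0.04) have these signs too. The autophagy and lysosome list had 31 measured genes, none past 2-fold in any comparison, beside the same shares of all genes. The list medians were 0.00 in Chlorella swimming against swimming, -0.06 in Chlorella swimming against nonswimming and -0.10 in swimming against nonswimming. Its medians were thus small, and Gabarapl1, Bnip3 and Ctsl lay within the scanner error. Muscle fibre markers were above 0 in Chlorella swimming against swimming. Below 0 were 15 of 31 list genes there, 21 in Chlorella swimming against nonswimming and 24 in swimming against nonswimming. In Chlorella swimming against nonswimming, 40.8% of all genes were at least as low as Bnip3 (-0.04). Beyond the scanner error 1 list gene was higher there and 3 lower, where 12% and 10.1% of all genes were.

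**Figure D4:**
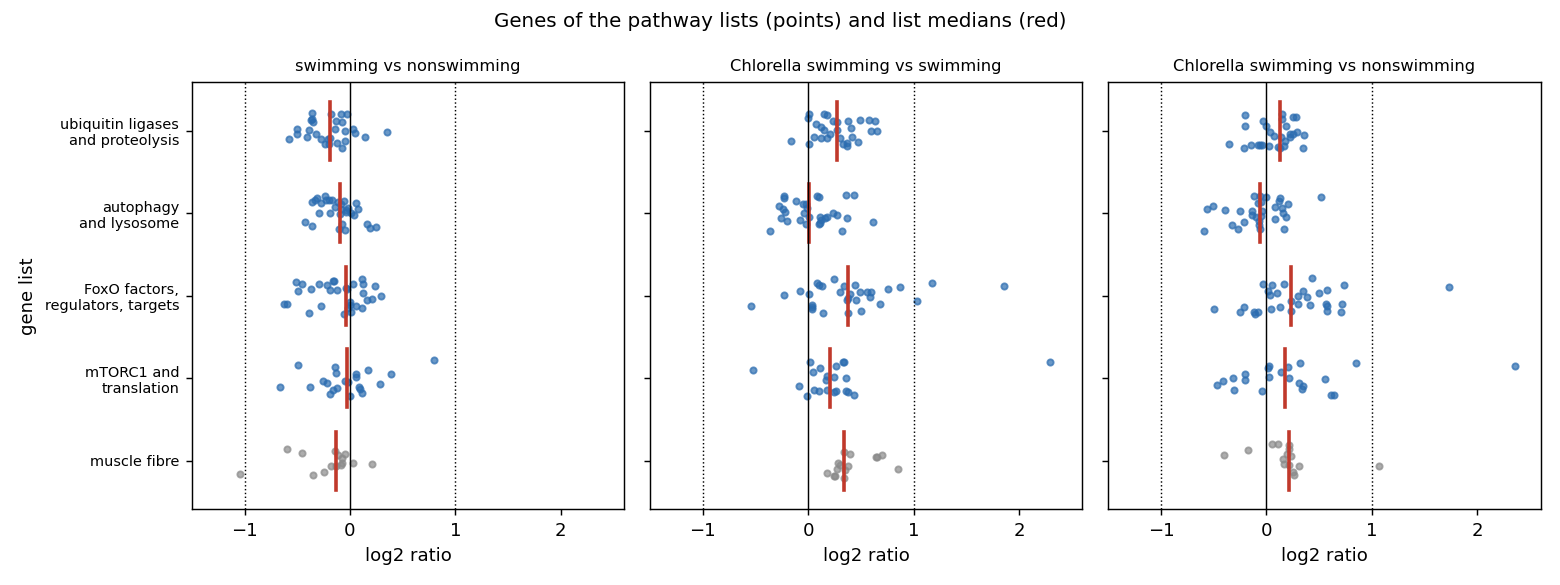
Log2 ratios of the genes of the 4 pathway lists and of the 15 muscle fibre markers in the 3 comparisons, with the list medians as red bars and 2-fold as dotted lines. In Chlorella swimming against swimming the FoxO list and the muscle fibre markers have medians of 0.38 and 0.34, and the autophagy and lysosome list one of 0.00.

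Genes whose values over the 3 arrays were most like those of Fbxo32 were found by the distance between pairs of log2 ratios, swimming against nonswimming and Chlorella swimming against swimming, among 13319 other genes with a symbol that were measured on all 3 arrays. The nearest were Olfr971, an olfactory receptor gene on dim signals (distance 0.01), Inpp5j, an inositol phosphatase (0.06), Camk2a, a calcium/calmodulin-dependent kinase (0.08), Chac1, an enzyme that degrades glutathione (0.11), and Castor1, an arginine sensor of mTORC1 (0.12). Camk2a had signals of 39.0 in Chlorella swimming, 18.1 in swimming and 38.8 in nonswimming muscle, and Chac1 had 25.8, 13.0 and 29.9. Inpp5j (0.238, 0.113 and 0.245 in the same order) and Castor1 (0.155, 0.0740 and 0.147) were dim too. Within a distance of 0.2 of Fbxo32, about 1 scanner error, lay 17 genes, and 108 lay within that distance of Trim63. Fbxo32 lies farther from 0 in both ratios, where fewer genes lie, so these counts do not compare how rare the patterns are. The nearest to Trim63 were Iqsec3, Wdr89, Ica1l, Hipk2 and Dctd, at distances of 0.03 to 0.04. Hipk2 had signals of 25.0, 15.4 and 13.4 in the same order, while the others were dim, at 0.299 or lower on every array. With 3 arrays such likeness rests on 2 differences and says nothing of shared function.

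The call on Fbxo32 was set against the ways of processing the arrays. Its ratio for swimming against nonswimming stayed past 2-fold in 9 of 9 other ways of processing, between -1.25 and -1.03. For Chlorella swimming against swimming it ranged from 0.91 to 1.16 and was under 2-fold in 5 of 9, where it was 0.91 or higher, so that call rests on the threshold while the ratio moved little. Foxo1 ranged from 0.69 to 0.96 and Trim63 from 0.50 to 0.81 in that comparison over the same 9. Centring on muscle fibre markers put them lower, at 0.46 and 0.30, and the value of Trim63 was then within the scanner error. For Chlorella swimming against nonswimming Trim63 reached 1.28 with the mean over its probes and 1.26 with the authors' deposited table, whose values for these genes equal the mean over a gene's probes up to 1 constant per comparison.

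**Figure D5:**
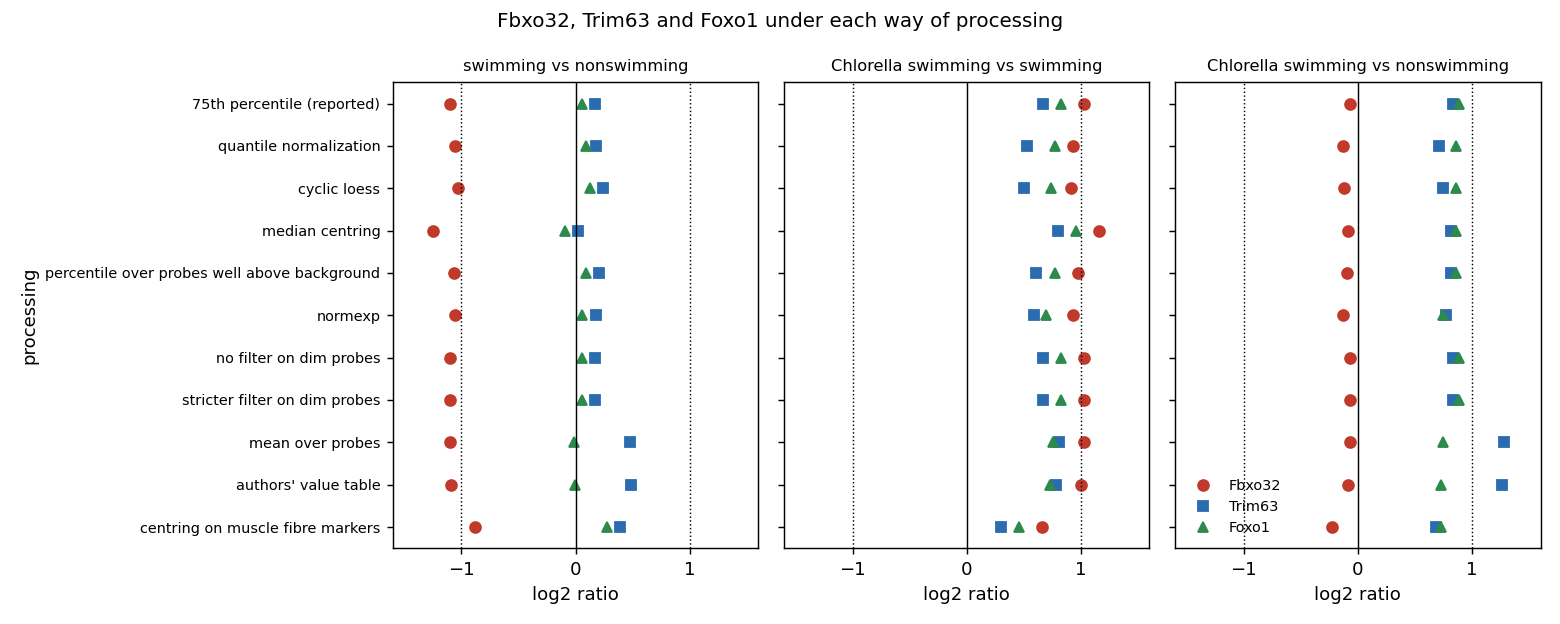
Log2 ratios of Fbxo32, Trim63 and Foxo1 in the 3 comparisons under the reported processing, the 9 alternatives and centring on muscle fibre markers. Dotted lines mark 2-fold. Fbxo32 keeps its sign in the first 2 comparisons and stays between -0.22 and -0.07 in the third, and centring on muscle fibre markers brings the 3 genes nearest to 0 in Chlorella swimming against swimming.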

How the data were processed

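Muscle RNA pooled from 10 mice per group received a Cy3 label and went onto 1 Agilent array for each group, per the labels' protocols. Per the submitters' processing notes the scans were read by Agilent Feature Extraction 9.5, and the deposited scanner files hold its intensity values. Used were the processed signal, from which the software had taken background and spatial trend, its error, the spot mean, the local background and flags of 0 or 1. The authors' deposited table holds log2 values of 13683 spots, 31.5% of those that are not controls. Set against the log2 signals, its differences between arrays correlated across spots. The r was 0.76 for swimming against nonswimming, 0.82 for Chlorella swimming against swimming and 0.71 for Chlorella swimming against nonswimming. The direction is thus that of the signal, while a correlation does not show the scale. For the 8 genes of the set it lists, its differences equal the mean log2 difference over the gene's probes up to 1 constant per comparison (0.00909, -0.0273 and -0.0182). For these genes the scale is thus log2. Of 7117 listed spots of genes with several probes, 45.3%, 45.1% and 44.1% lie within 0.01 of that mean after the constant, and how the others were made, and the centre of its values, stay unknown. Its column medians were 0.010 for Chlorella swimming, -0.005 for swimming and 0.008 for nonswimming.

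Control and outlier-flagged spots were left out and spots of a probe averaged. The 75th percentile of each array was subtracted after taking log2. No spot was saturated. Probes other than those of the 10 genes were named through accession (22936), symbol (6654) or older symbol (3108) in a RefSeq table of GRCm38.p6, and 8454 kept the file's name. A gene is its brightest probe. Probes printed 10 times varied between spots by a median SD (log2) of 0.058, 0.062 and 0.066 on the Chlorella swimming, swimming and nonswimming arrays. A gene was counted if at least 2-fold different and well above background on both arrays.

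The 10 genes, the lists and the tests were chosen with earlier results of these data known. Named were the 10 genes, up to 3 genes per list and direction past 2-fold, and the 5 genes nearest to Fbxo32 and to Trim63. Tried instead were cyclic loess, quantile normalization, centring on the median, a 75th percentile of the probes well above background only, normexp (offset of 50), a filter at a signal of 50 and none at all, the mean over probes, the authors' deposited table, other call rules and, added later, centring on muscle fibre markers. The steps were tested on simulated data. Python 3.11.15, R 4.3.3 and limma 3.58.1 were used.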

Additional observations from a re-analysis of the deposited data

How the results depend on the processing

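No paired analysis was possible because each group had 1 array. With 9 other ways of processing the median log2 ratio of the 8 genes ranged from -0.13 to 0.09 in swimming against nonswimming, from -0.07 to 0.22 in Chlorella swimming against swimming and from 0.01 to 0.14 in Chlorella swimming against nonswimming, each within 1 scanner error of the reported value. Centring on muscle fibre markers, added after seeing the data, gave 0.24, -0.29 and -0.04 and moved the median of all genes to 0.18, -0.29 and -0.12, so part of each shift is common to the array. It left 0 genes at least 2-fold lower in swimming against nonswimming and 0 higher in Chlorella swimming against swimming. The count of 1 higher in Chlorella swimming against swimming was also 0 with quantile normalization, cyclic loess, normexp, a percentile of the probes above background only and the authors' deposited table, with Fbxo32 between 0.91 and 0.999 on the log2 scale. With 1.5-fold as the limit, or any size beyond the scanner error, it was 3, and that of genes higher in Chlorella swimming against nonswimming was 2 in place of 0. For that comparison it was 1 with the mean over probes and with the authors' deposited table, namely Trim63. Without the filter on dim probes, 1 gene was higher in swimming against nonswimming and 1 lower in Chlorella swimming against swimming; these are Cblb, which was not well above background. Over all genes, the counts per comparison and direction ranged from 42 to 2104 over these 9. Centring on the array median put the typical gene at -0.19 in swimming against nonswimming and at 0.21 in Chlorella swimming against swimming, and the share of higher among all 2-fold calls at 70.9% (reported processing 82.8%) and 32.8% (22.0%). Centring on muscle fibre markers put that share at 5.90% in Chlorella swimming against swimming and at 37.4% (58.2%) in Chlorella swimming against nonswimming. The number of arrays limits the precision, and Foxo3 and Cblb could not be read at this signal over background.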
